A study of Mus musculus with 23 samples.

Results

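The 10 genes described here code for chemokines that dendritic cells can make: Ccl3, Ccl4, Ccl5, Ccl6, Ccl17, Ccl22, Cxcl2, Cxcl9, Cxcl10 and Cxcl16. They were taken from a list of symbols, matched to the Ensembl identifiers of the count table, and make up 10 of its 47729 identifiers. All 10 passed the filter on low expression, which kept 19597 genes. Ccl17 passed it although only 10 of 23 libraries held more than 3 of its counts.

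RNA was sequenced from dendritic cells (DCs) of the spleens of wild type BALB/c mice, enriched for CD11c and sorted after staining for CD11c, MHC class II, B220, CD8a and CD172a. The gate that the study describes for total DCs left out cells with markers of other lineages, such as CD3, B220 and Gr-1. The labels define 4 subsets by the surface levels of CD8 and CD172: DC1a (CD8 high, no CD172), DC1b (CD8 intermediate, with CD172), DC2 (CD8 low, CD172 high) and DC3 (no CD8, CD172 low). The mice were either untreated, in 2 pools, or received the treatment that the labels call TLI and do not spell out, in 4 pools. Each library stands for pooled mice, so the spread among libraries is a spread among pools. DC1a, DC1b and DC3 cells of TLI mice are represented by 4 libraries each, DC2 cells of TLI mice by 3 (pools 1, 3 and 4), and each untreated subset by 2, which gives 23 libraries. By the labels the untreated pools and TLI pools 1 and 2 belong to batch 1, and TLI pools 3 and 4 to batch 2.

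Chemokines are small secreted proteins that bind receptors on leukocytes and guide where those cells move. In the spleen, DCs use them to bring T cells, NK cells and myeloid cells close to the antigen they present. Inflammatory members of the family are induced by signals through NF-kB, and a group with receptors on activated T cells is induced by interferons.

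The stretches upstream of the start sites are shown for Ccl6, Cxcl2 and Cxcl9, which had the most differences past the threshold, and for Cxcl10, the neighbour of Cxcl9 with a different pattern. They were read from RefSeq promoters of build GRCm38.p6, which hold 7 of the 10 genes and not Ccl4, Ccl5 or Cxcl16. Each is written 5′ to 3′ on the strand of its gene and ends before the transcript annotated by GENCODE. Capitals mark matches to the NF-kB consensus and to the core of the interferon-stimulated response element (GAAA, 2 bases of any kind and GAAA). The stretches lie at chr11:83593088-83593337 (minus strand), chr5:90903649-90903870 (plus strand), chr5:92328080-92328329 (minus strand) and chr5:92348890-92349139 (minus strand).
Ccl6: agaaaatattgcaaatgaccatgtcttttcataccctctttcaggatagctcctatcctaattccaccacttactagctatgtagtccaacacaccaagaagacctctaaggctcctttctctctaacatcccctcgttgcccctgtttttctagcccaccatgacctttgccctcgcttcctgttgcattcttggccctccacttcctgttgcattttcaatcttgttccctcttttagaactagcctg
Cxcl2: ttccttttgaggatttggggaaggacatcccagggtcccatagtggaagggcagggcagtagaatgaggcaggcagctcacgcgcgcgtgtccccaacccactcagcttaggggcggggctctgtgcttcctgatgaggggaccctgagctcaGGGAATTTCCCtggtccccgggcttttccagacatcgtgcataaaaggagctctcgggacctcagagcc
Cxcl9: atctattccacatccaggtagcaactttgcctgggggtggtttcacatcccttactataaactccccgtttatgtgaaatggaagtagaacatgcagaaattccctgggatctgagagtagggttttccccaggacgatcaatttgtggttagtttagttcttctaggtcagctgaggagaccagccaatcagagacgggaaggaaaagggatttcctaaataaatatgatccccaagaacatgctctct
Cxcl10: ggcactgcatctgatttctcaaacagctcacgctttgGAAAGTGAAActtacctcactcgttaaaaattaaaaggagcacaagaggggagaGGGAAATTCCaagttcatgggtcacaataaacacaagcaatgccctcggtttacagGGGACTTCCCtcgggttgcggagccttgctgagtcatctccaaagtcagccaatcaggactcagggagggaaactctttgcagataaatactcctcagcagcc
The NF-kB consensus matched 2 of the 7 promoters within 250 bases before the start, those of Cxcl2 and Cxcl10, against 3.9% of all 32851 promoters searched on both strands. Its 2 matches in Cxcl2 overlap and lie on opposite strands. The interferon element matched Cxcl10 alone among the 7 and 2.98% of all promoters. Of the other motifs, the GAS element (TTCNNNGAA) matched Ccl17 and 7.02% of all promoters, the AP-1 motif (TGANTCA) matched Cxcl10 and 6.75%, and TATAAA matched Cxcl9 and 12.4%. The C/EBP motif (TTGCNNAA) and the composite of ETS and IRF (GGAA, 2 bases of any kind and GAAA) matched none of the 7, against 9.56% and 2.3% of all promoters. A match is a string of letters and not a measured binding site.

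Total counts ran from 19256447 to 36997890 per library. Levels are given as CPM, the usual count per fixed number of reads, with library totals scaled by TMM factors, and 3 counts, taken as the limit of detection, correspond to 0.0862 to 0.147 CPM. These limits cover counting error only, since amplified reads are not independent molecules. Markers of cDC1 cells (10 genes such as Xcr1 and Clec9a) summed to 3753 to 4223 CPM in untreated DC1a libraries. In untreated DC2 libraries they summed to 398 to 481 CPM. In the same groups 10 cDC2 markers such as Sirpa summed to 29.2 to 30.0 and 1479 to 1630.3 CPM. The other untreated subsets lay between. Their cDC1 sums were 1788 and 1898 CPM in DC1b and 2705 and 2440 CPM in DC3 libraries, which the labels give as without CD8. Among the cDC1 markers, Irf8 had means of 846 CPM in untreated DC1b and 556 CPM in untreated DC1a libraries. Batf3, Wdfy4 and Naaa were lower in DC1b libraries, with means of 40.1, 64.6 and 136 CPM against 291, 420 and 807 CPM in DC1a. Their cDC2 sums were 714 and 1285 CPM in DC1b and 162 and 245 CPM in DC3 libraries. Untreated DC1b libraries carried markers of plasmacytoid DCs, with a sum over 6 genes of 4733 to 7019 CPM against 41.8 to 147 CPM in TLI DC1b libraries. In bulk samples, fewer cells of a type and less RNA per cell cannot be told apart.

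Markers of cells outside the DC lineage also differed between libraries. The sum of 10 neutrophil markers was 1524 to 23326 CPM in TLI DC1b and 133 to 2153 CPM in TLI DC2 libraries, against 0.748 to 18.9 and 1.76 to 57.7 CPM in the untreated ones. In untreated DC1a libraries none of the 10 was above 3 counts. The sum of 12 monocyte and macrophage markers was 8693 to 26902 CPM in TLI DC1b and 3121 to 5195 CPM in untreated DC1b libraries, with 11 to 12 and 10 of the 12 above 3 counts. Lyz2 alone made up most of this sum in TLI DC1b libraries, with means of 15168 CPM there and 2228 CPM in untreated DC1b libraries. Ly6c2, also among the 12, went the other way, with means of 431 CPM in TLI and 1672 CPM in untreated DC1b libraries. The sum of 10 NK cell markers was 54.2 to 4214 CPM in TLI DC3 and 234 to 436 CPM in untreated DC3 libraries, and its highest value was in TLI pool 1. It was 8.22 to 342 CPM in TLI DC1a and 39.4 to 522 CPM in TLI DC1b libraries. The untreated ones had 3.24 to 3.92 and 2.28 to 7.30 CPM. In DC2 libraries it was 0.220 to 194 CPM in TLI and 3.32 to 7.29 CPM in untreated mice. The highest values of these TLI subsets were in batch 1. Ncr1, a receptor that defines NK cells, ranged from 0 to 1152 CPM in TLI DC3 libraries. The sum of 6 erythroid genes was 18564 to 138351 CPM in the 7 TLI libraries of batch 1 and 171 to 7925 CPM in the 8 of batch 2. In the 8 untreated libraries, which also belong to batch 1, it was 51.2 to 2138 CPM.

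**Figure D1:**
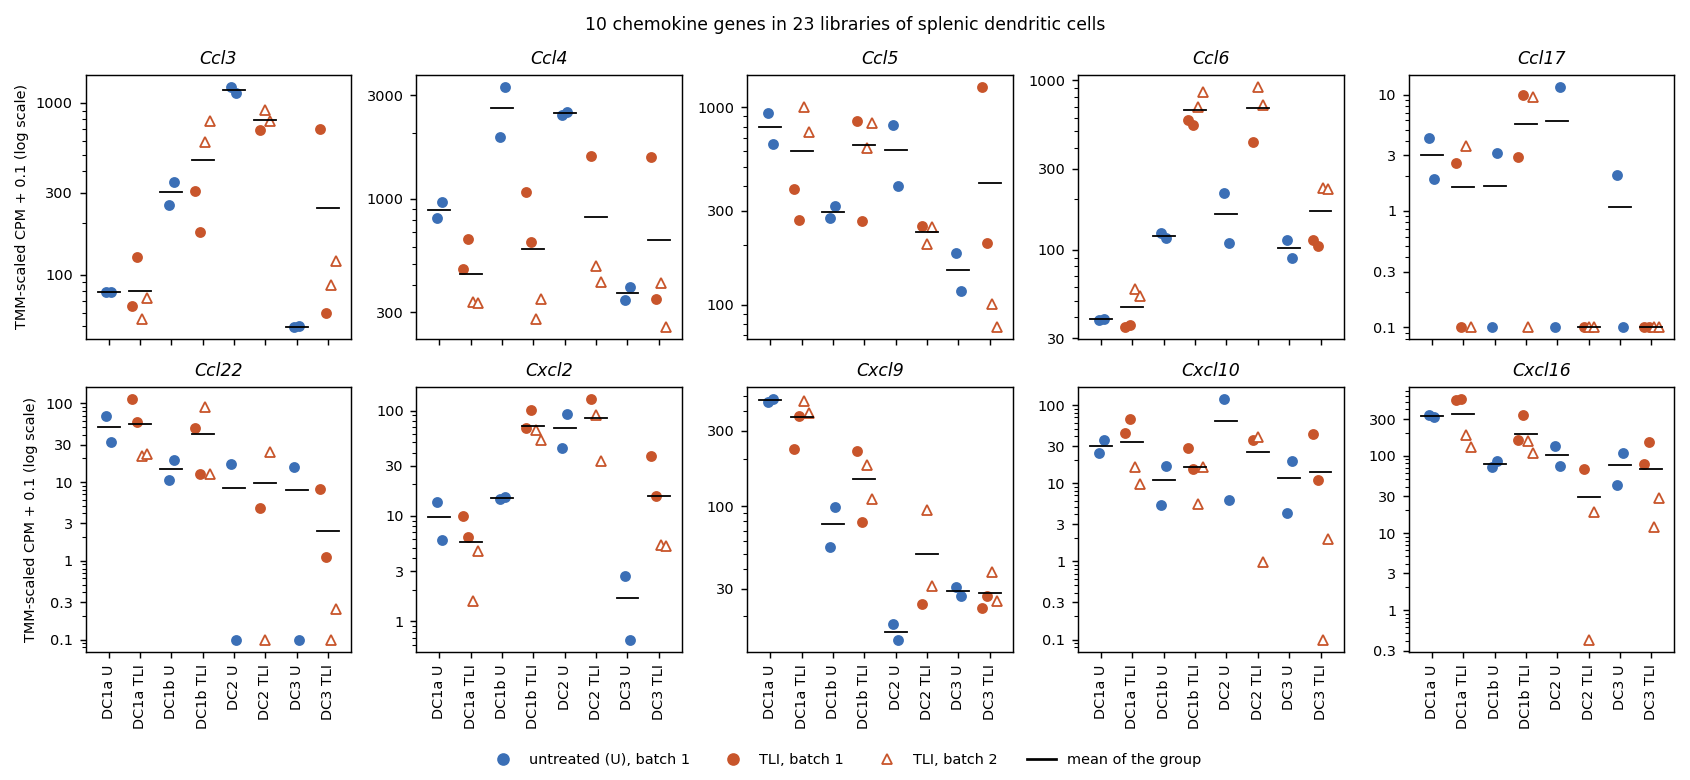
TMM-scaled CPM plus 0.1 on a log scale for the 10 genes, with 1 point per library, the 4 subsets of untreated (U) and TLI mice along the x axis, filled circles for batch 1, open triangles for batch 2 and a black line at the group mean. Ccl6 was 431 CPM or more in each DC1b and DC2 library of TLI mice and at most 231 CPM in each other library, and the lowest DC1a library for Cxcl9 was at 230.2 CPM.

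Among the 10 genes, 10 of 60 pairs of gene and subset comparison were past the threshold (adjusted p under 0.05) in untreated mice, against 0.76% of such pairs over all genes, and 14 of 60 in TLI mice, against 1.38%. These p values come from the quasi-likelihood test of edgeR, adjusted by Benjamini and Hochberg's method over all genes. The pairs involved Ccl3, Ccl4, Ccl6, Cxcl2 and Cxcl9 in untreated mice, and Ccl3, Ccl6, Cxcl2, Cxcl9 and Cxcl16 in TLI mice. Ccl5, Ccl17, Ccl22 and Cxcl10 were past the threshold in 0 of 22 comparisons. At an unadjusted p under 0.05 these 4 genes had 1, 4, 2 and 0 comparisons, and DESeq2's test called 0, 1, 1 and 0. DESeq2 called more of all genes, with 6.97% of pairs between subsets of untreated and 7.95% of TLI mice.

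Ccl3 (MIP-1 alpha), Ccl4 (MIP-1 beta) and Ccl5 (RANTES) attract T cells, NK cells and monocytes, and Ccl3 and Ccl5 bind CCR1. Ccl3 (ENSMUSG00000000982) lies on chromosome 11 from 83647844 to 83649355 on the minus strand (GRCm38, as for all genes here), and its level was 79.6 and 79.0 CPM in the untreated DC1a pools and 1243 and 1146 CPM in the untreated DC2 pools. It was 256 and 347 CPM in untreated DC1b and 49.2 and 50.1 CPM in untreated DC3 cells. The 4 untreated groups did not overlap, in the order DC2, DC1b, DC1a and DC3.

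In DC2 versus DC1a cells of untreated mice Ccl3 was higher by 3.91 ± 0.97 on the log2 scale (fitted value ± SE, adjusted p = 0.0458), with means of 1195 ± 69.0 CPM (SD, n = 2) and 79.3 ± 0.396 CPM (SD, n = 2). In DC3 versus DC2 cells it fell by 4.59 ± 1.00 (adjusted p = 0.038). These calls rest on few libraries. The first was lost without any of the 8 untreated libraries, TLI DC1a pools 1, 3 and 4, any TLI DC2 pool or TLI DC3 pool 4 (adjusted p up to 0.423), and the second without any untreated library, TLI DC1a pools 1 and 4 or TLI DC2 pool 1 (up to 0.31). With the pool as a block the adjusted p values were 0.0685 and 0.062, and the first was 0.0724 without the batch term.

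After TLI, Ccl3 was 65.9, 126, 55.3 and 72.7 CPM in pools 1 to 4 of DC1a cells, 308, 178, 595 and 785 CPM in DC1b cells and 698, 914 and 785 CPM in DC2 cells. DC2 libraries were above each DC1a library, and the difference of 3.39 ± 0.70 on the log2 scale was past the threshold (adjusted p = 0.0104). Its fitted values were 2.87 within batch 1 and 3.84 within batch 2 (adjusted p = 0.539 and 0.00683). The call was lost without TLI DC1a pool 3 (adjusted p = 0.0517) and with the pool as a block (adjusted p = 0.058). TLI DC3 cells had 706, 59.7, 86.4 and 120.4 CPM, and pool 1, the library with the highest NK cell markers, stood above the other DC3 pools.

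When the TLI pool 1 libraries of DC3 and DC1b were left out, Ccl3 also passed the threshold when DC1b were compared with DC1a (log2 difference 2.49, adjusted p = 0.00482), DC3 versus DC1b (-2.50, adjusted p = 0.0102) and DC3 versus DC2 cells (-3.20, adjusted p = 0.00144) of TLI mice. This alternative was chosen after the marker values were seen.

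Ccl4 (ENSMUSG00000018930), 13228 bases from Ccl3 on chromosome 11 from 83662584 to 83664683 on the plus strand, had 1933 and 3287 CPM in untreated DC1b and 2434 and 2518 CPM in untreated DC2 cells. It had 815 and 967 CPM in untreated DC1a and 340.1 and 393 CPM in untreated DC3 cells. DC3 libraries were the lowest, DC1a libraries lay between, and the DC1b and DC2 libraries overlapped.

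Ccl4 fell by 2.83 ± 0.52 on the log2 scale in DC3 versus DC1b (adjusted p = 0.021) and by 2.76 ± 0.52 in DC3 versus DC2 cells of untreated mice (adjusted p = 0.0151). The first call was lost without DC1b pool 2 or either DC3 pool (adjusted p up to 0.277), and the second without any of the DC2 or DC3 pools (up to 0.17). In a fit without the batch term the adjusted p values were 0.392 and 0.254.

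In TLI mice Ccl4 had 473, 653, 335 and 331 CPM in DC1a, 1079, 632, 278 and 344 CPM in DC1b and 1566, 488 and 411 CPM in DC2 cells. DC3 cells had 1563, 343, 408 and 255 CPM, again with pool 1 above the others. The TLI subsets overlapped and no pair of them was past the threshold by edgeR's test (0 of 6, with 1 at an unadjusted p under 0.05 and 0 called by DESeq2). Mean levels in batch 2 were 0.592, 0.363, 0.287 and 0.348 of those in batch 1 in DC1a, DC1b, DC2 and DC3 cells.

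Ccl5 (ENSMUSG00000035042), on chromosome 11 from 83525778 to 83530518 on the minus strand, had 935 and 651 CPM in DC1a, 276 and 315 CPM in DC1b and 813 and 398 CPM in DC2 cells of untreated mice. Untreated DC3 cells had 182 and 117 CPM, below each library of the other untreated subsets. After TLI it had 386, 269, 1005 and 747 CPM in DC1a and 851, 265, 624 and 838 CPM in DC1b cells. These groups overlapped each other and the untreated ones. TLI DC2 cells had 249, 202 and 248 CPM and TLI DC3 cells 1276, 205, 100.1 and 76.6 CPM. The DC3 library of pool 1 was higher than any other library for Ccl5, and without it Ccl5 was lower in DC3 versus DC1b cells (-2.32, adjusted p = 0.0377). Within batch 2 alone, Ccl5 was past the threshold as lower in DC2 versus DC1a (-1.85, adjusted p = 0.0463), DC3 versus DC1a (-3.22, adjusted p = 0.0394) and DC3 versus DC1b cells (-3.03, adjusted p = 0.0248).

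Ccl6 (C10, ENSMUSG00000018927) is a CC chemokine of rodents made by myeloid cells, which binds CCR1. It lies on chromosome 11 from 83587882 to 83593087 on the minus strand and overlaps the span of a non-coding gene, E230016K23Rik, on the other strand, with 0 shared exon bases. Its level was 38.6 and 39.0 CPM in untreated DC1a and 125 and 117 CPM in untreated DC1b cells. Untreated DC2 cells had 216 and 109.9 CPM and untreated DC3 cells 114 and 89.6 CPM. DC1a libraries were lowest, and the other 3 untreated subsets overlapped except that DC1b lay above DC3.

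Relative to DC1a cells of untreated mice, Ccl6 was higher by 1.64 ± 0.29 on the log2 scale in DC1b (adjusted p = 0.00918) and by 2.07 ± 0.29 in DC2 cells (adjusted p = 0.000968). The DC1b call was lost without either pool of untreated DC1a or DC1b cells. It was also lost in a fit of the untreated libraries alone (adjusted p = 0.115), without a filter on low counts (0.0509) and without the batch term (0.252). The DC2 call was kept without each of the 23 libraries in turn but lost without the batch term (adjusted p = 0.0604).

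In TLI mice Ccl6 was 34.8, 35.7, 58.7 and 53.4 CPM in DC1a and 585, 543, 693 and 854 CPM in DC1b cells. DC2 cells had 431, 918 and 714 CPM and DC3 cells 114, 105, 231 and 228 CPM. Each DC1b and DC2 library was above each DC3 library, and each DC3 library above each DC1a library. The log2 differences were 3.90 ± 0.22 for DC1b versus DC1a (adjusted p = 6.12e-08), 3.77 ± 0.23 for DC2 versus DC1a (adjusted p = 6.46e-08) and 1.84 ± 0.21 for DC3 versus DC1a cells (adjusted p = 0.000177).

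Ccl6 was lower in DC3 than in DC1b (-2.06 ± 0.21, adjusted p = 4.48e-05) and DC2 cells (-1.92 ± 0.22, adjusted p = 0.000112) of TLI mice. All 5 of these TLI differences were kept without each library in turn. Within batch 2 they were 3.86, 3.97, 2.12, -1.74 and -1.85, each past the threshold. Within batch 1 they were 4.01, 3.62, 1.64, -2.37 and -1.98, with adjusted p values of 0.0766, 0.0551, 0.578, 0.207 and 0.236. Batch 1 holds 1 DC2 library.

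Cxcl2 (MIP-2, ENSMUSG00000058427) attracts neutrophils through CXCR2, and lies on chromosome 5 from 90903871 to 90905938 on the plus strand with the NF-kB matches shown above. Its level was 13.5 and 5.75 CPM in DC1a, 14.4 and 15.1 CPM in DC1b and 43.8 and 92.5 CPM in DC2 cells of untreated mice. Untreated DC3 cells had 2.58 and 0.571 CPM. The 4 untreated groups did not overlap, with DC2 highest and DC3 lowest. The difference past the threshold was that of DC3 versus DC2 cells, a fall by 5.43 ± 0.93 on the log2 scale (adjusted p = 0.00704). The value was -6.89 without untreated DC3 pool 1, and the fold also moved by more than 1.5 times without untreated DC2 pool 2. The call was lost without untreated DC3 pool 2 (-4.72). It was also lost in a fit of the untreated libraries alone (adjusted p = 0.0695) and without the batch term.

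In TLI mice Cxcl2 was 9.92, 6.24, 1.45 and 4.53 CPM in DC1a and 68.6, 102, 65.7 and 52.0 CPM in DC1b cells. DC2 cells had 129, 90.5 and 33.4 CPM and DC3 cells 36.6, 15.2, 5.25 and 5.04 CPM. DC1b and DC2 libraries were above all DC1a libraries, and DC3 pool 1 reached the range of DC2. Cxcl2 was higher by 3.91 ± 0.61 in DC1b versus DC1a (adjusted p = 0.00167) and by 4.24 ± 0.64 in DC2 versus DC1a cells (adjusted p = 0.000815), both kept without each library in turn. Within batches 1 and 2 these were 3.41 and 4.38, and 4.01 and 4.47, with adjusted p values of 0.0746 to 0.222.

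Cxcl2 was lower in DC3 than in DC1b (-2.59 ± 0.59, adjusted p = 0.0409) and DC2 cells (-2.93 ± 0.62, adjusted p = 0.0218) of TLI mice. The first call was lost without any 1 of 14 libraries: untreated DC1a, DC1b and DC2 of both pools, TLI DC1a pools 1 and 2, and TLI DC1b and DC3 pools 2 to 4 (adjusted p up to 0.163). The second was lost without TLI DC2 pools 1 or 3 or TLI DC3 pools 2, 3 or 4 (up to 0.105). With the pool as a block the adjusted p values were 0.0713 and 0.0599, and without the batch term 0.243 and 0.196. Within batches 1 and 2 the first difference was -1.71 and -3.50 and the second -2.31 and -3.60 (adjusted p = 0.19 to 0.675). Without the TLI pool 1 libraries of DC3 and DC1b the first was -3.26 (adjusted p = 0.0252).

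Cxcl9 (MIG, ENSMUSG00000029417) and Cxcl10 (IP-10, ENSMUSG00000034855) are induced by interferon gamma and attract T and NK cells through CXCR3. They are 18558 bases apart, Cxcl9 on chromosome 5 from 92321347 to 92328079 on the minus strand and Cxcl10 on chromosome 5 from 92346638 to 92348889 on the minus strand. In untreated mice Cxcl9 was 458 and 478 CPM in DC1a and 54.8 and 98.6 CPM in DC1b cells. It was 17.7 and 14.2 CPM in DC2 and 30.8 and 26.8 CPM in DC3 cells. The 4 untreated groups did not overlap, with DC1a highest and DC2 lowest.

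Relative to DC1a cells of untreated mice Cxcl9 was lower in all 3 comparisons, with log2 differences of -2.61 ± 0.57 in DC1b (adjusted p = 0.0383), -4.87 ± 0.63 in DC2 (adjusted p = 0.000498) and -4.02 ± 0.61 in DC3 cells (adjusted p = 0.00793). The DC2 difference was past the threshold under all 31 alternatives. The DC1b call was lost without any untreated library, TLI DC1a pools 3 or 4 or TLI DC3 pool 2 (adjusted p up to 0.364) and without the batch term (0.102), and the DC3 call without either pool of untreated DC1a or DC3 cells (up to 0.183).

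In TLI mice Cxcl9 was 230.2, 371, 466 and 390.5 CPM in DC1a and 223, 78.7, 182 and 110.1 CPM in DC1b cells. DC2 cells had 23.8, 94.5 and 31.3 CPM and DC3 cells 22.6, 26.9, 38.0 and 25.0 CPM. DC1a libraries were above all others, and DC1b libraries were above the DC3 libraries but overlapped those of DC2. Cxcl9 fell by 2.99 ± 0.46 in DC2 versus DC1a (adjusted p = 0.00108), by 3.68 ± 0.42 in DC3 versus DC1a (adjusted p = 0.000189) and by 2.43 ± 0.40 in DC3 versus DC1b cells (adjusted p = 0.0043). These were kept without each library in turn, although the first was -3.72 without TLI DC2 pool 3. In batch 1 the values were -3.65, -3.60 and -2.61, and in batch 2 -2.67, -3.67 and -2.20, with adjusted p values of 0.123 to 0.43.

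Cxcl10 had 24.6 and 36.1 CPM in untreated DC1a, 5.18 and 16.4 CPM in DC1b, 120.3 and 5.98 CPM in DC2 and 4.03 and 19.1 CPM in DC3 cells. In TLI mice it had 43.5, 66.5, 16.3 and 9.67 CPM in DC1a and 28.0, 15.04, 5.42 and 16.2 CPM in DC1b cells. TLI DC2 cells had 36.1, 39.1 and 0.879 CPM and TLI DC3 cells 43.0, 11.1, 0 and 1.84 CPM. The 2 untreated DC1a libraries were above those of untreated DC1b and DC3, the untreated DC2 pools lay on either side of them, and the 4 TLI subsets overlapped. Art3, on the opposite strand, shares 133 exon bases with Cxcl10, and without knowledge of the strand reads of both cannot be told apart, which leaves the level of Cxcl10 uncertain.

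Cxcl16 (ENSMUSG00000018920) is made as a membrane protein that is shed as a soluble ligand of CXCR6, and lies on chromosome 11 from 70453983 to 70459984 on the minus strand. It was 339 and 315 CPM in DC1a, 72.3 and 85.7 CPM in DC1b and 134 and 73.7 CPM in DC2 cells of untreated mice. Untreated DC3 cells had 41.8 and 109.8 CPM, and the 2 DC1a libraries were above the other 6. TLI DC1a cells had 532, 547, 186 and 129 CPM and TLI DC1b cells 161, 342, 158 and 109.6 CPM. TLI DC2 cells had 67.6, 0.316 and 18.6 CPM and TLI DC3 cells 78.8, 151, 11.9 and 28.1 CPM. Every DC1a library of TLI mice was above each DC2 library.

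Cxcl16 fell by 3.61 ± 0.88 on the log2 scale in DC2 versus DC1a cells of TLI mice (adjusted p = 0.0295). It was -2.99 within batch 1 and -3.94 within batch 2 (adjusted p = 0.259 and 0.335), and mean levels in batch 2 were 0.292 of those in batch 1 in DC1a and 0.14 in DC2 cells. The call was lost without any TLI DC1a pool or TLI DC2 pools 1 or 4 (adjusted p up to 0.069), in the TLI libraries alone (adjusted p = 0.0691), with the pool as a block (0.0718) and without the batch term (0.129). With Zmynd15, on the opposite strand, it shares 552 exon bases, which leaves its level uncertain for the same reason.

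Ccl17 (TARC, ENSMUSG00000031780) and Ccl22 (MDC, ENSMUSG00000031779) attract T cells through CCR4 and are known as products of mature DCs. They lie 58753 bases apart, on chromosome 8 from 94810453 to 94812036 on the plus strand and chromosome 8 from 94745590 to 94751699 on the plus strand. Ccl17 reached at most 11.6 CPM and was at 0 in all TLI DC2 and DC3 libraries. It was 2.80, 9.84, 0 and 9.47 CPM in the TLI DC1b pools and 4.11 and 1.77 CPM in the untreated DC1a pools. The other untreated pools had 0 and 3.06 CPM in DC1b, 0 and 11.6 CPM in DC2 and 1.96 and 0 CPM in DC3 cells, and TLI DC1a pools had 2.47, 0, 3.51 and 0 CPM. In each group with a count of Ccl17 other than untreated DC1a, at least 1 pool was at 0.

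Ccl22 was 69.0 and 32.3 CPM in untreated DC1a and 114, 58.5, 21.5 and 22.8 CPM in TLI DC1a cells. TLI DC3 cells had 8.15, 1.03, 0 and 0.144 CPM, with the highest value in pool 1. Each DC1a library of either treatment was above each TLI DC3 library. Ccl22 was 10.6 and 18.9 CPM in untreated DC1b, 16.7 and 0 CPM in DC2 and 15.5 and 0 CPM in DC3 cells. It was 49.1, 12.5, 89.8 and 12.6 CPM in TLI DC1b and 4.61, 0 and 24.2 CPM in TLI DC2 cells.

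**Figure D2:**
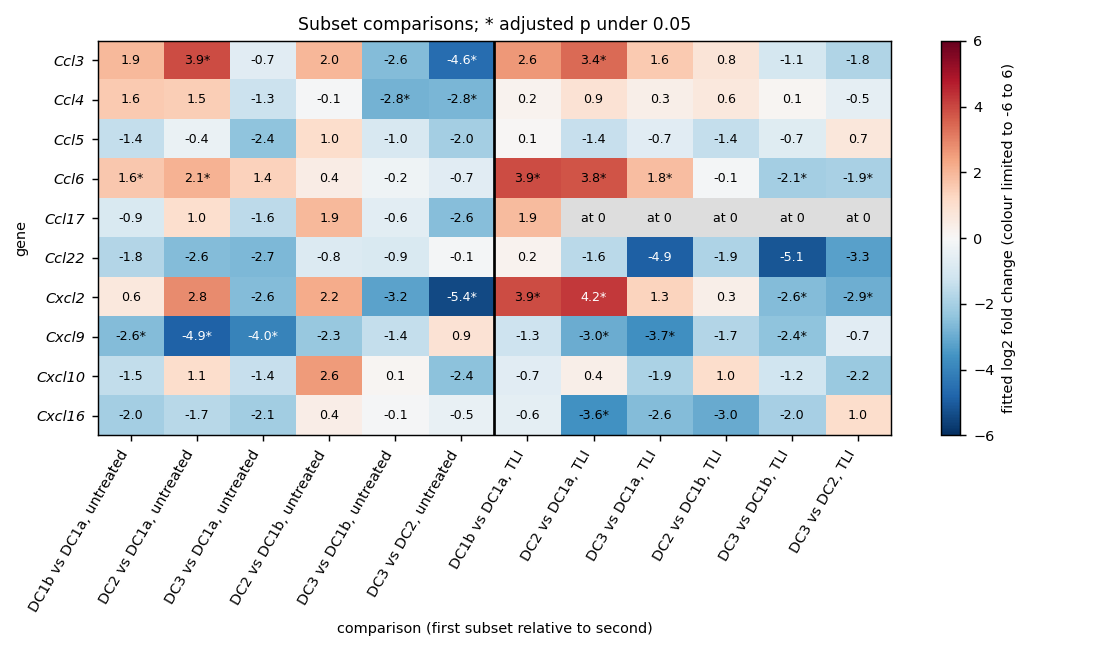
Fitted log2 fold change of the first subset relative to the second for the 10 genes (rows) in 6 comparisons in untreated (left) and 6 in TLI mice (right), with an asterisk at an adjusted p under 0.05 and grey cells where a group was at 0 in all libraries. Cxcl9 was lower and Ccl6 higher in each of the comparisons with DC1a cells, with 5 of 6 asterisks each.

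By comparison, 2 of 10 genes passed the threshold between DC1b and DC1a cells of untreated mice (background 0.837%), 3 in DC2 versus DC1a (1.91%), 1 in DC3 versus DC1a (0.184%), 1 in DC3 versus DC1b (0.393%) and 3 in DC3 versus DC2 cells (0.837%). In TLI mice the counts were 2 (1.42%), 5 (3.4%), 2 (0.75%), 3 (1.11%) and 2 (1.37%) in the same order. DC2 versus DC1b cells had 0 genes past the threshold in untreated (background 0.398%) and 0 in TLI mice (0.214%) by edgeR's test. At an unadjusted p under 0.05 there were 3 in each, and DESeq2 called 1 and 2. In DC3 versus DC2 cells of untreated mice the median log2 difference was -2.23 over the 10 genes and 0 over all genes, and in DC2 versus DC1a cells of TLI mice -0.51 and 0.02.

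The comparison of TLI with untreated mice asked whether the treatment changed chemokine transcripts within a subset. Ccl6 rose in DC1b cells by 2.08 ± 0.28 on the log2 scale (adjusted p = 0.00294), from 121 ± 6.21 CPM (SD, n = 2) to 669 ± 138 CPM (SD, n = 4). Its 4 TLI libraries lay between 543 and 854 CPM and the untreated ones at 125 and 117 CPM. This was 1 of 40 pairs of gene and subset past the threshold, against 0.128% over all genes and 0.413% in DC1b cells. The fitted value is adjusted for the batch, which is estimated from TLI pools, and the ratio of the means (5.53) is not. Ccl6 was 1.37 to 2.09 times higher in batch 2 than in batch 1 in the 4 subsets of TLI mice. In batch 1 alone the difference was 2.25 ± 0.35 (adjusted p = 0.0601), and without either untreated DC1b pool the adjusted p rose to at most 0.0751.

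The change of Ccl6 with TLI differed between DC1b and DC1a cells. It was larger in DC1b cells by 2.26 ± 0.35 on the log2 scale (adjusted p = 0.04 for the difference of the TLI effect), 1 of 60 such pairs against 0.04% over all genes and 0.0357% in this comparison. In DC1a cells the change was -0.18 ± 0.25. The difference was kept only when the library left out was an untreated DC2 pool, TLI DC1b pool 3 or TLI DC3 pools 1 to 3, and was lost without any of the other 17 libraries (adjusted p up to 0.242). In batch 1 alone it was 2.45 (adjusted p = 0.289), and it was lost without a filter on low counts (adjusted p = 0.081) and without the batch term (0.795). The other 5 differences of the TLI effect had 0 genes past the threshold by edgeR. These were DC2 and DC3 minus DC1a (background 0.0255% and 0%), DC2 and DC3 minus DC1b (0.122% and 0.0204%) and DC3 minus DC2 (0.0357%). At an unadjusted p under 0.05 they had 2, 2, 1, 2 and 5 genes, and DESeq2 called 1, 1, 0, 2 and 2.

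Of the changes that missed the threshold, 4 were picked after their values were seen. Ccl6 in TLI DC2 cells was above both untreated DC2 pools in each library, with a change of 1.51 ± 0.29 (adjusted p = 0.0612). Without untreated DC2 pool 1 it was 2.08 (adjusted p = 0.0228). Ccl4 in DC1b cells was 1079, 632, 278 and 344 CPM in TLI and 1933 and 3287 CPM in untreated libraries, without overlap, and its change of -1.66 ± 0.43 missed the threshold (adjusted p = 0.108). It passed it without TLI DC3 pool 1 (-1.79, adjusted p = 0.0304). Cxcl2 had changes of 3.00 ± 0.81 in DC1b (adjusted p = 0.125) and 3.63 ± 0.82 in DC3 cells (adjusted p = 0.172). For DC1a, DC2 and DC3 cells edgeR's test called 0 of 10 genes (background 0.0102%, 0.0612% and 0.0255%), with 0, 3 and 3 at an unadjusted p under 0.05 and 0, 1 and 1 called by DESeq2.

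**Figure D3:**
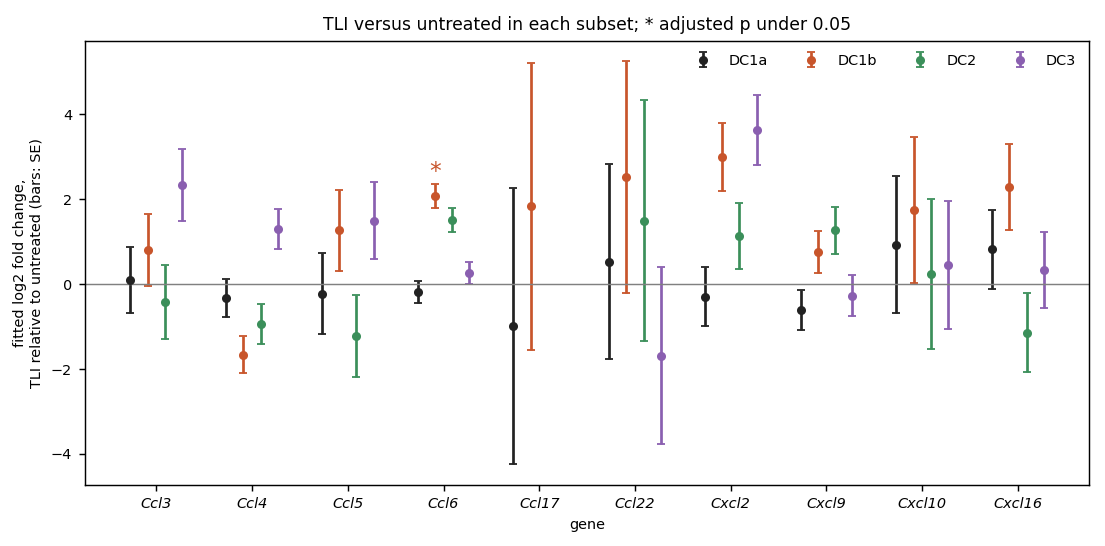
Fitted log2 fold change of TLI relative to untreated libraries for each gene, with 1 point per subset, bars of 1 SE and an asterisk at an adjusted p under 0.05. Ccl17 is left out in DC2 and DC3 cells, where the TLI libraries were at 0. Ccl6 in DC1b cells, at 2.08 ± 0.28, is the point with an asterisk.

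The markers of other cells moved with some of these results. TLI DC1b libraries had higher monocyte, macrophage and neutrophil sums and higher Ccl6 than the untreated ones. The monocyte and macrophage sum is mostly Lyz2 there, as given above. Of its 12 markers 3 were past the threshold in this comparison, all higher (background 0.413%). In the same comparison the sum of plasmacytoid DC markers was lower, as given above, with 1 of 6 past the threshold (Tcf4, -3.90 ± 0.52, adjusted p = 0.00294). The erythroid sum was 2200.2 to 69448 CPM in TLI and 63.5 to 96.9 CPM in untreated DC1b libraries, with 2 of 6 genes past the threshold (Hbb-bs and Hbb-bt, adjusted p = 0.0377 and 0.0405). Among the 4 TLI DC1b libraries the lower monocyte and macrophage sums, 9766 and 8693 CPM in pools 3 and 4, went with the higher Ccl6 levels of 693 and 854 CPM. Pools 3 and 4 make up batch 2, where Ccl6 was higher in every subset of TLI mice, so batch and marker sum cannot be told apart here. The neutrophil sum in pools 1 to 4 of TLI DC1b cells was 23326, 1524, 1929 and 10240 CPM. Cxcl2 was 68.6, 102, 65.7 and 52.0 CPM in the same pools, so the lowest sum went with the highest Cxcl2 level. Over 23 libraries the correlation of log2 levels was 0.788 between Ccl6 and the monocyte and macrophage sum and 0.733 between Cxcl2 and the neutrophil sum, where points share subset and pool. Ccl5 and the NK cell sum gave -0.0765 over 23 libraries, although the TLI DC3 library of pool 1 was highest in both. The TLI DC3 library of pool 2, next in NK cell markers with 1002 CPM, had 205 CPM of Ccl5. The part of these cells in the results was not tested.

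**Figure D4:**
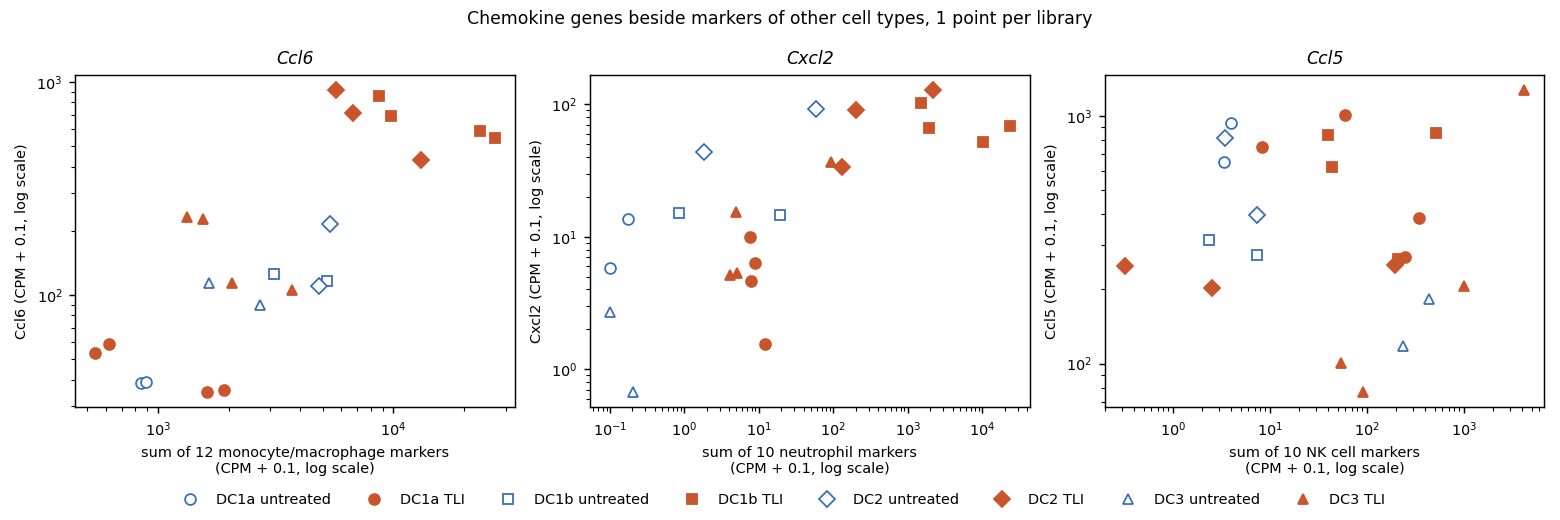
CPM plus 0.1 of Ccl6, Cxcl2 and Ccl5 against the summed CPM plus 0.1 of markers of monocytes and macrophages, neutrophils and NK cells, both on log scales, with 1 point per library, open for untreated and filled for TLI mice. DC1b and DC2 libraries of TLI mice sit at the upper right for Ccl6, and the TLI DC3 library of pool 1 is highest in both Ccl5 and NK cell markers.

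To rank the genes, levels were taken per kilobase of the longest annotated protein-coding transcript, and the order depends on that length. For Ccl5 it is 532 bases, against 960 bases for all its annotated exons, and for Ccl4 it is 660 bases by both. The longer length would lower Ccl5 relative to Ccl4, and ranks by it were not computed. Ccl4 ranked first of the 10 in 14 of 23 libraries, Ccl5 in 7 and Ccl3 in 2. Ccl4 was first in each untreated DC1b, DC2 and DC3 library, and the order changed between pools in the other groups. In TLI DC1b cells Ccl4 was first in both pools of batch 1 and Ccl5 in both of batch 2. In TLI DC2 cells Ccl4 was first in the pool of batch 1 and Ccl3 in both of batch 2. In untreated DC1b cells Ccl4 had a mean of 3955 CPM per kb, followed by Ccl5 with 555. In untreated DC1a cells the means were 1490.3 for Ccl5, 1350.3 for Ccl4 and 162 CPM per kb for Cxcl9, with Ccl5 first in pool 1 and Ccl4 in pool 2. The mean of the summed level of the 10 genes was lowest in untreated DC3 libraries, with 782 to 806 CPM, and highest in untreated DC2 libraries, with 4369 to 5039 CPM. In TLI DC3 libraries it ran from 740.1 to 3849 CPM, with the top in pool 1.

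Of 27 other chemokine genes, 17 were tested, with 10 of 374 pairs of gene and comparison past the threshold, of which Ccl2 and Ccl9 made up 9. DESeq2 called 68 of the 374, and 79 had an unadjusted p under 0.05 by edgeR. Of the 10, 2 were between subsets of untreated mice (0.76% over all genes) and 8 between subsets of TLI mice (1.38%). Ccl9, a myeloid CC chemokine whose gene lies between Ccl5 and Ccl6 on chromosome 11 from 83572919 to 83578636, had means of 194 CPM in TLI DC1b and 279 CPM in TLI DC2 cells against 10.4 CPM in TLI DC1a cells. Those differences were 4.22 ± 0.69 (adjusted p = 0.00226) and 4.77 ± 0.74 (adjusted p = 0.00105). Like Ccl6 it was higher in DC1b and DC2 than in DC1a cells in untreated mice too (adjusted p = 0.0277 and 0.00678). Ccl2 (MCP-1), which attracts monocytes, was lower in TLI DC3 cells, at 10.5 CPM, than in TLI DC1a, DC1b and DC2 cells, at 188, 159 and 182 CPM.

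The 7 receptors of the 10 chemokines had 0 of 154 pairs past the threshold by edgeR, with 27 at an unadjusted p under 0.05 and 21 called by DESeq2. Over all genes edgeR's shares of pairs were 0.76% and 1.38% between subsets of untreated and TLI mice. They were 0.128% for TLI versus untreated and 0.04% for the difference of the TLI effect. Cxcr3, the receptor of Cxcl9 and Cxcl10, had 65.5 ± 49.4 CPM (SD, n = 4) in TLI DC1a cells, and Ccr4 stayed under 1 CPM in each library. For 8 genes of cleavage and scavenging 8 of 176 pairs were past the threshold, with 57 at an unadjusted p under 0.05 and 31 called by DESeq2. Among them is Mmp12, a protease that trims chemokines. It was higher in DC2 versus DC1a cells of untreated (10.13 ± 2.13, adjusted p = 0.0175) and TLI mice (8.35 ± 1.43, adjusted p = 0.00249). Ccrl2, which binds chemoattractants without signalling, fell by 3.63 ± 0.77 in DC3 versus DC2 cells of untreated mice (adjusted p = 0.0334).

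The 15 genes of the NF-kB pathway had 17 of 330 pairs past the threshold, with 85 at an unadjusted p under 0.05 and 45 called by DESeq2. For the lists in this paragraph the shares of pairs over all genes are those given with the receptors. In DC3 versus DC2 cells 3 were lower in untreated (Relb, Il1b and Rel, background 0.837%) and 4 in TLI mice (Tnf, Tnfaip2, Rel and Il1b, background 1.37%), with 0 higher. In DC3 versus DC1b cells of TLI mice 4 were lower (Tnf, Tnfaip2, Relb and Rel, background 1.11%). Rel, a subunit of NF-kB, fell by 2.28 ± 0.43 and by 1.87 ± 0.32 in DC3 versus DC2 cells of untreated and TLI mice (adjusted p = 0.0151 and 0.00375). The median of the 15 genes in both comparisons was -1.69 and -1.24, against 0 and -0.03 over all genes. Of 440 pairs over 20 genes of interferon signalling, 1 was past the threshold, that of Ifit3, with 6.98 ± 1.74 in DC2 versus DC1a cells of TLI mice (adjusted p = 0.0424), where Cxcl9 fell. At an unadjusted p under 0.05 there were 48 of these pairs, and DESeq2 called 35. For 12 maturation genes 13 of 264 pairs were past the threshold, with 91 at an unadjusted p under 0.05 and 57 called by DESeq2. Among them, Ccr7 was lower in TLI DC2 (-3.50 ± 0.86, adjusted p = 0.0326) and DC3 cells (-5.11 ± 0.84, adjusted p = 0.00395) than in TLI DC1a cells.

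Across the 23 libraries, which share subsets and pools, the genes most like Ccl6 by Pearson correlation of log2 CPM were Ifitm3 (0.96), Gm8865 (0.95) and Wfdc17 (0.94), the last on the same stretch of chromosome 11 from 83703991 to 83706268. Those most like Cxcl2 were Ms4a6b (0.91), Cebpb (0.89) and Tgm2 (0.88). Those most like Ccl3 were Rhoq (0.89), Stap1 (0.87) and Fgr (0.87), and Cxcl9 went most with Mab21l3 (0.88), Gabarap (0.86) and Polr2g (0.84). The closest genes were Zhx3 for Ccl4 (0.87), Tmem134 for Cxcl16 (0.94), H2-Q7 for Cxcl10 (0.84), Bcl2a1a for Ccl5 (0.76), Creg1 for Ccl22 (0.76) and Ndst1 for Ccl17 (0.65). The 3 most alike genes of each chemokine were checked by Spearman's correlation and in the 15 TLI libraries alone. They stayed among the 3 in 12 checks and not in 48. By Spearman's correlation Zhx3 stayed first for Ccl4, while H2-Q7 ranked 26.5 for Cxcl10, Rhoq 40.5 for Ccl3 and Ndst1 46 for Ccl17.

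Among the 10 genes themselves the highest correlation was that of Ccl3 and Cxcl2, 0.82 over 23 libraries. It was 0.76 in the 15 libraries of batch 1 and 0.97 in the 8 of batch 2. For neighbours in the genome the values were 0.49 for Ccl3 and Ccl4, with 0.87 in batch 1 and 0.33 in batch 2, 0.65 for Ccl3 and Ccl6, with 0.50 in batch 1 and 0.94 in batch 2, 0.28 for Cxcl9 and Cxcl10, and 0.26 for Ccl17 and Ccl22. The lowest was that of Ccl6 and Cxcl16, at -0.53.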

How the data were processed

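Spleen DCs were sorted in small numbers by the study's methods, and RNA was amplified with SMARTseq v4. According to the submitters' processing notes and the methods, the authors trimmed reads with Trimmomatic, aligned them to GRCm38 with HISAT2 and derived the deposited table of estimated counts per gene with StringTie. The values are whole numbers and not normalized. The design had assumed read counts, and the same test was used on these expected counts. Amplification from few cells adds spread, and whether counting used strand is not given in the sources used here.

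Identifiers were matched to GENCODE annotation of GRCm38, which left 505 without a symbol. edgeR 4.0.16 (R 4.3.3) fitted a quasi-likelihood model to all 23 libraries with 8 groups and the batch, after filterByExpr and TMM scaling. Benjamini-Hochberg adjustment ran over the 19597 genes in each of 22 comparisons. TMM factors were 0.840 to 1.18, the common biological coefficient of variation was 1.08 and 14 residual degrees of freedom remained. Log2 CPM for correlations used a prior count of 2. The script was tested on simulated data, in which most genes called by DESeq2 were unchanged ones and few of those called by edgeR were. There edgeR missed most of the altered genes at the smaller fold. For TLI versus untreated DC1b cells edgeR also missed most at the larger fold. DESeq2 missed fewer than edgeR at each fold. The simulation used dispersions estimated by edgeR and, apart from the altered genes, the same mean in all groups. It held no batch or pool effect, so it cannot tell how many calls of either tool are wrong in these data. DESeq2 1.42.0 and other settings were alternatives.

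Replicates of a group are pools of mice, and the closest of 25 replicate pairs differed by a chi-square of 80.1 per gene, so none was taken as a repeat of 1 library. Pool numbers in the labels tie libraries to the same pool. Deviations of same-numbered libraries from their group means correlated at 0.0801 to 0.393 in 21 TLI pairs and -0.00585 to 0.0159 in 12 untreated pairs. The TLI deviations also hold the difference between batches, so these values cannot show a tie by pool. With 2 libraries per untreated group the deviations are mirror images, so each untreated value occurs once in each pool.

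The 10 genes, the gene lists and the tests were chosen with earlier results of these data known. Fold changes were to be given for pairs past the threshold, and from other lists for up to 5 genes per comparison with the largest fold change and a mean of at least 5 CPM. The most alike genes were the 3 with the highest Pearson correlation among 10155 genes. No library of TLI DC2 cells from pool 2 was analysed here.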

Additional observations from a re-analysis of the deposited data

Results flagged for a closer look

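The TLI DC3 library of pool 1 stood apart from the other 3 of its group in 4 genes. Its level was 706 CPM for Ccl3 (others 59.7 to 120.4 CPM), 1563 CPM for Ccl4 (255 to 408 CPM), 1276 CPM for Ccl5 (76.6 to 205 CPM) and 8.15 CPM for Ccl22 (0 to 1.03 CPM). Dixon's ratio of the gap to the range was 0.873 to 0.906. The test covered 30 groups of 4 libraries, and chance puts about 1 in 20 groups past its limit if values are normally distributed. That rate need not hold on the CPM scale, from which these flags come. On log2 CPM, screened first, 0 of 30 groups passed it, and the CPM scale was added after that result was seen. The same library had the highest sum of NK cell markers, 4214 CPM, and of erythroid genes, 138351 CPM, and their part in these values was not tested.

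The effect of TLI on Ccl6 differed between subsets, by 2.26 on the log2 scale between DC1b and DC1a cells (2.08 and -0.18, edgeR's adjusted p = 0.04 for the difference).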

How the results depend on the processing

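The number of pairs past the threshold between subsets of untreated mice was 10, with 18 by DESeq2 (which called 6.97% of all genes against 0.76%), 3 without the batch term and 3 to 11 when 1 library was left out. It fell to 6 or fewer without any of the untreated DC1a, DC1b or DC3 libraries. In TLI mice it was 14, with 0 in batch 1 alone, 12 in batch 2 alone (6 of them among the 14) and 12 to 18 without 1 library. For TLI versus untreated it was 1, with 5 by DESeq2, 2 without a filter, 0 in batch 1 alone, 2 without the TLI pool 1 libraries of DC3 and DC1b (an alternative chosen after seeing the data), and 0 to 2 without 1 library. It was 0 without either untreated DC1b pool and 2 without untreated DC2 pool 1 or TLI DC3 pool 1. For the difference of the TLI effect it was 1, with 8 by DESeq2, 0 without the batch term, 0 in batch 1 alone, 0 without the TLI pool 1 libraries of DC3 and DC1b, and 0 to 2 without 1 library (2 without untreated DC2 pool 1 or TLI DC3 pool 2). The cause of these shifts was not tested.

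With the pool as a replicate block the counts were 8 in untreated mice, 10 in TLI mice and 1 for the difference of the TLI effect, and no call other than the 6 named beside their results was lost. No block could be fitted for TLI versus untreated, since each pool received 1 treatment. Of the 26 called pairs, 26 were kept with RLE size factors, with DESeq2 and with a minimum of 10 counts, 24 without a filter and 15 without the batch term, where 7 of the 10 calls in untreated mice, 3 of the 14 in TLI mice and that of the difference of the TLI effect were lost. No pair changed sign. With library totals in place of TMM factors 13 of 80 group means moved by more than 1 SD.

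Untreated groups hold 2 libraries, and the batch term rests on TLI pools. Ccl17 was at 0 in 13 libraries and at 43 to 287 counts in the other 10, with both kinds in 5 of the 8 groups.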
